A study of Mus musculus with 20 samples.

Results

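Interleukin-6 (Il6), leukaemia inhibitory factor (Lif), oncostatin M (Osm) and interleukin-27 (Il27) are secreted signals of the IL-6 cytokine family, and they were followed here with every real-time PCR assay that carries one of these 4 symbols. They make up 6 of the 648 assays of an inflammation panel, with 3 assays for Il6 and 1 each for Lif, Osm and Il27. The panel was run on total RNA of mouse ileal mucosa in 20 samples, 5 in each of 4 groups. Healthy animals were given PBS, a salt buffer, by the intrarectal and the oral route. All 3 remaining groups had intrarectal DNBS, a hapten (dinitrobenzene sulfonic acid) used to provoke colitis, and differed in what was given by mouth: PBS in the DNBS group, a treatment named only CEC in the CEC group, and Nissle, the name of a probiotic Escherichia coli strain, in the Nissle group. Strain, sex, age and time after treatment are not given in the sources used here. Equal amounts of RNA per mouse were combined according to the series text, which leaves unsaid whether a sample is 1 animal. The p-values therefore reflect only how much these samples vary, and part of that variation may be technical.

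These cytokines signal through gp130, a receptor chain encoded by Il6st, that pairs with a ligand-specific chain such as Il6ra, Lifr or Il27ra. The pairing activates JAK kinases and then STAT transcription factors, STAT3 above all for IL-6, and SOCS proteins made in response switch the signal off. In the gut, IL-6 is produced by macrophages, stromal cells and epithelium during inflammation, oncostatin M by myeloid cells including neutrophils, and the IL-27 subunit encoded by Il27 by macrophages and dendritic cells, where it joins the product of Ebi3.

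The RefSeq promoter table (GRCm38.p6) held an entry for Il6 and Lif, and the 250 bases before each start site are shown because they carry, in Il6 more than in Lif, short motifs named after factors of the inflammatory response. Capitals mark matches on either strand to a kB motif (its core, GGANNTTCC), an AP-1 motif (TGANTCA), a CRE motif (TGACGT) and a C/EBP motif (TTNNGNAAT). The Il6 stretch lies at chr5:30012864-30013113 on the plus strand and the Lif stretch at chr11:4257318-4257567 on the plus strand.
Il6: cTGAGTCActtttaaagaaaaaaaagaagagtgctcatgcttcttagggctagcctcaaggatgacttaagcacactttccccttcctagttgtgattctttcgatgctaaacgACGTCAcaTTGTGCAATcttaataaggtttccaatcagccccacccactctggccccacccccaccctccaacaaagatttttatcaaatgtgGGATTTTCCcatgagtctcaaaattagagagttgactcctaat
Lif: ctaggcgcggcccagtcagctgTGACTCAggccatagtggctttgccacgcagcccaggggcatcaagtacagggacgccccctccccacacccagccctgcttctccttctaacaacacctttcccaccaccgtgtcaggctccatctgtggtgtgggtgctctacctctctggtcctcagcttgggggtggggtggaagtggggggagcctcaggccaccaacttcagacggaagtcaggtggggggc

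The Il6 stretch held all 4 motifs, with first bases at -249 (AP-1), -136 (CRE), -128 (C/EBP) and -43 (kB) from the start site, and none overlapped another. The Lif stretch held the AP-1 motif alone, at -228. Among 32536 different stretches of this length in the table, 3.59% held the kB motif, 6.73% the AP-1 motif, 6.50% the CRE motif and 10.2% the C/EBP motif. A match is a description of the letters and was not tested for binding. Osm and Lif are neighbours on chromosome 11 in that assembly, with no annotated gene between them.

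Each value is a cycle threshold (Ct), the PCR cycle at which a product becomes visible, so a lower Ct means more template, and a Ct of 40 means that no product was seen (undetermined). Levels are given as relative levels on a log2 scale, with the mean of the 544 assays measured in every sample at 0. A sample gave a value for 570 to 594 assays, and its mean Ct over the 544 assays lay between 22.6 and 24.3. Levels of different assays are not compared, since each assay has its own efficiency. In bulk mucosa, fewer cells of a type and less RNA per cell cannot be told apart. The tissue was checked against markers: the epithelial assays Apoa1 and Ccl25 had a mean level of 4.67 to 7.60 in every sample, while 7 of the 9 epithelial markers sought, among them Epcam and Vil1, were not analysed here.

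Some facts about the table bear on these cytokines. First, for Nissle 3, 4 and 5 the experimental group label names the healthy controls, whereas the title and both treatment labels name Nissle. All 3 stay with Nissle here, and results that rest on them are also given without them. Second, 172 values of the panel equal the mean Ct of the other 4 samples of their group to within 0.000002 cycles, and the same search across samples of different groups found 0. They lie in 123 assays and are spread over all groups (45 healthy, 40 DNBS, 40 CEC and 47 Nissle). The sources used here do not say how they arose, and they are called group-mean values below. Of the 172, 8 are Il6 values, and Il6_Mm00446190_m1 is the only assay of the panel with such a value in all 4 groups (healthy 5, DNBS 5, CEC 8 and Nissle 4). All 3 Il6 values of DNBS 5 are group-mean values, so Il6 was measured in 4 of the 5 DNBS samples. The Lif, Osm and Il27 assays hold none. Means, SDs and n of these 6 assays below leave group-mean values out. The means of cell type markers keep the table as deposited, as does the ranking of other assays by Pearson's r, unless stated. The fits also keep it as deposited. For Il6_Mm00446190_m1 the group differences over all 20 samples are given without group-mean values too.

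Il6, a cytokine produced during inflammation, stood higher in the DNBS group than in healthy ileum in all 4 measured samples of each. The difference did not pass the panel-wide threshold in the fit over all 4 groups. With Il6_Mm00446190_m1 the measured healthy levels were -7.11 (healthy 1b), -6.17 (healthy 3), -7.02 (healthy 4) and -5.26 (healthy 6). The measured DNBS levels were -1.27 (DNBS 1), -0.93 (DNBS 2), -2.50 (DNBS 3) and -2.63 (DNBS 4). The groups did not overlap: the lowest DNBS sample lay above the highest healthy one. The mean level was -6.39 ± 0.86 in healthy and -1.83 ± 0.86 in DNBS (SD, n = 4 each).

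The CEC and Nissle groups were split. The measured CEC levels of this assay were -2.84 (CEC 1), -1.75 (CEC 3), -7.94 (CEC 5) and -5.51 (CEC 7), and the mean was -4.51 ± 2.78 (SD, n = 4). CEC 3 lay within the DNBS range and CEC 1 just below it, whereas CEC 7 lay in the healthy range and CEC 5 below it. The measured Nissle levels were 1.89 (Nissle 1), -4.05 (Nissle 2), -6.34 (Nissle 3) and -5.94 (Nissle 5), with a mean of -3.61 ± 3.80 (SD, n = 4). Nissle 1 had the highest Il6 level of all 16 measured samples, Nissle 2 lay between the DNBS and healthy samples, and Nissle 3 and 5, of contradictory label, lay in the healthy range.

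**Figure D1:**
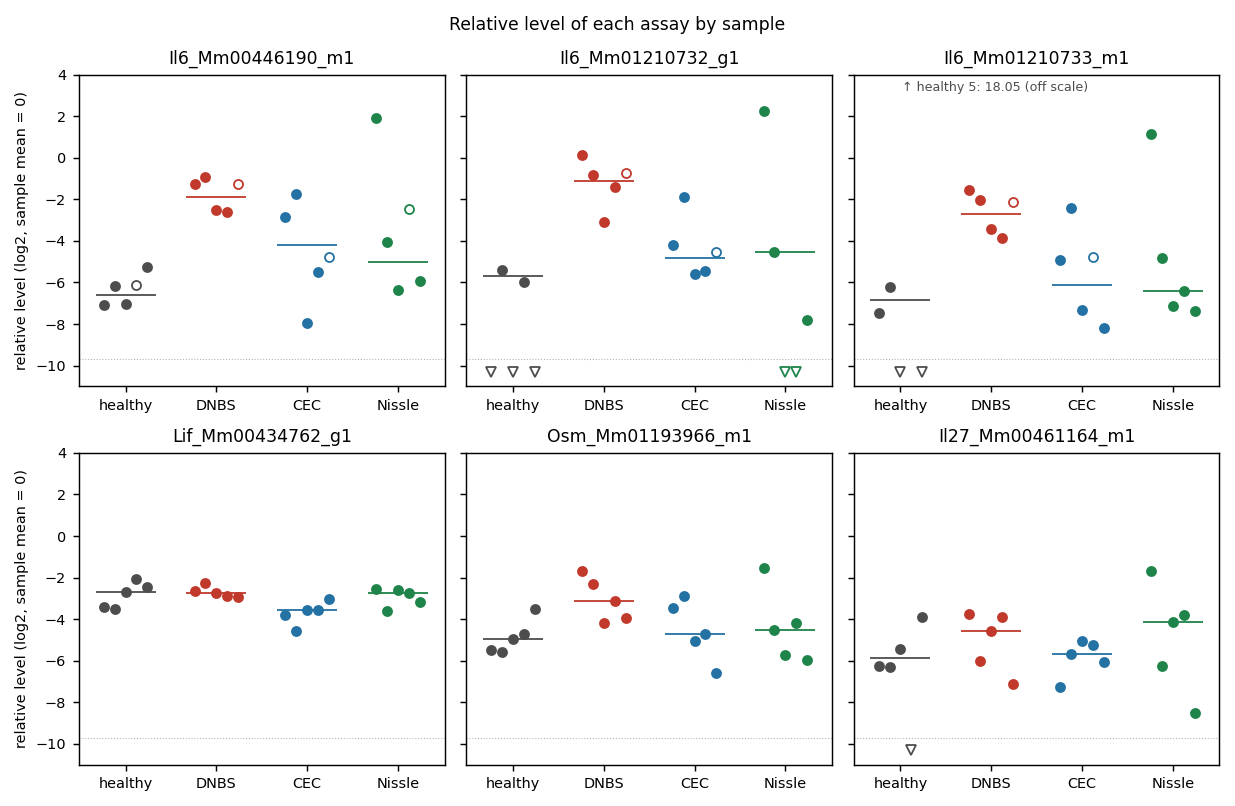
Relative level (log2, sample mean at 0) of each of the 6 assays in the 20 samples, by group; filled points are measured values, open points group-mean values, triangles below the dotted line undetermined samples, and bars the medians of measured values. Il6_Mm00446190_m1 separates healthy from DNBS samples, and Nissle 1 is at 1.89 there. With Il6_Mm01210733_m1, healthy 5 stands at 18.05, off the scale, and the healthy bar of that assay leaves this value out.

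Against the healthy group, limma over all 4 groups gave Il6_Mm00446190_m1 a log2 difference of 4.62 in DNBS (SE 1.22, adjusted p = 0.122). That is a 24.6-fold difference, rank 3 by p-value among 569 tested assays. None of the 5 member assays tested was called in this comparison, where 0.176% of all tested assays were called. Groups that do not overlap with DNBS higher were found for 2.28% of tested assays, and Il6_Mm00446190_m1 is 1 of them. Without the group-mean values the difference was 4.61 (SE 1.54, adjusted p = 0.172). Fitted to the DNBS and healthy samples alone, it was 4.62 with an SE of 0.51 and passed (limma, adjusted p = 0.000459, with 1.58% of assays called), and without group-mean values it also passed (4.61, SE 0.63, adjusted p = 0.00813). With array weights, which count variable samples less, it also passed (4.35, SE 0.96, limma adjusted p = 0.00713), in a fit that called 15.8% of assays. Leaving out Nissle 1 alone gave an adjusted p of 0.0119 in the fit over all groups. The estimate was at least 4.35 in these fits, while its SE ranged from 0.51 to 1.54.

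The oral treatments were compared with the DNBS group. Il6_Mm00446190_m1 had a log2 difference of -2.85 in CEC (SE 1.22, limma adjusted p = 0.444) and of -1.66 in Nissle (SE 1.22, limma adjusted p = 0.853). Neither passed, and no assay of the panel did in either comparison (0% called; 61 and 24 assays had an unadjusted p under 0.05). Without the group-mean values the differences were -2.71 and -1.78. Without the 3 Nissle samples of contradictory label the Nissle difference changed sign, to 0.63 (SE 1.40). Only Nissle 1 and 2 remained there, and without Nissle 1 alone the Nissle difference was -2.98. Against healthy, the differences were 1.77 in CEC (limma adjusted p = 0.803) and 2.96 in Nissle (limma adjusted p = 0.488), in comparisons that called 0.176% of assays each. The Nissle value was 1.64 without Nissle 1 and 5.25 without the 3 samples of contradictory label (SE 1.40, limma adjusted p = 0.0849), and the CEC value was 1.07 without CEC 3. CEC and Nissle differed by -1.19 (SE 1.22), or by -3.48 without the 3 samples (SE 1.40, limma adjusted p = 0.562), and no assay was called there (0%; 8 had an unadjusted p under 0.05). With group-mean values left out, the differences from healthy were 1.90 in CEC and 2.84 in Nissle, and CEC minus Nissle was -0.93. Because the comparisons reuse the healthy, DNBS, CEC or Nissle samples, none of them is an independent repeat of another.

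The other Il6 assays had fewer healthy values. Il6_Mm01210732_g1 was undetermined in healthy 1b, 4 and 6 and in Nissle 3 and 4, both of contradictory label. Its healthy levels were -5.39 (healthy 3) and -5.97 (healthy 5), and its measured DNBS levels 0.15, -0.82, -3.09 and -1.43 (DNBS 1 to 4). All DNBS samples lay above both healthy ones. It was at -4.18, -1.87, -5.61 and -5.47 in CEC 1, 3, 5 and 7, and at 2.24, -4.54 and -7.81 in Nissle 1, 2 and 5. As with the first assay, CEC 3 and Nissle 1 were the highest of their groups.

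Detection of Il6_Mm01210732_g1 did not pass the test. It had a value in 5 of 5 DNBS samples against 2 of 5 healthy ones (two-sided Fisher's exact test, p = 0.167, adjusted p = 0.931 over the 67 assays whose detection varied). The value of DNBS 5 counted there is a group-mean value. For Il6_Mm01210733_m1 the counts were 5 of 5 DNBS and 3 of 5 healthy samples (two-sided Fisher's exact test, p = 0.444). They include a group-mean value in DNBS 5 and the Ct of 5.74 in healthy 5 described below. No assay of the panel was called by detection in any comparison (0%), and 5 against 5 allows a smallest p of 0.00794. After adjustment over the assays whose detection varied, a single assay at that p could not pass by itself. With only 2 healthy values Il6_Mm01210732_g1 was not tested for level by the filter of 3 values per group. Without that filter limma gave a DNBS minus healthy difference of 4.50 (SE 1.80, adjusted p = 0.239).

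Il6_Mm01210733_m1 carried 1 value that decided its fit. Healthy 5 had a Ct of 5.74, a relative level of 18.05 and the only value of the panel under cycle 10, in the sample that the first assay gives as a group-mean value and the other assay places at -5.97. Healthy 1b was at -7.46 and healthy 3 at -6.20, and healthy 4 and 6 were undetermined. The measured DNBS levels of -1.54, -2.01, -3.42 and -3.86 (DNBS 1 to 4) all lay above healthy 1b and 3. With healthy 5 included, limma gave a DNBS minus healthy difference of -4.06 (SE 3.75, adjusted p = 0.675), the opposite sign of the other assays. Without that value only 2 healthy values remained and the assay was not tested. The measured CEC levels were -4.93, -2.43, -7.34 and -8.19 (CEC 1, 3, 5 and 8), and the Nissle levels 1.14, -4.84, -7.13, -6.41 and -7.39 (Nissle 1 to 5). CEC 8 and Nissle 4, for which the first assay holds group-mean values of -4.76 and -2.44, were measured here at -8.19, the lowest CEC value, and at -6.41, the middle Nissle value.

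**Figure D2:**
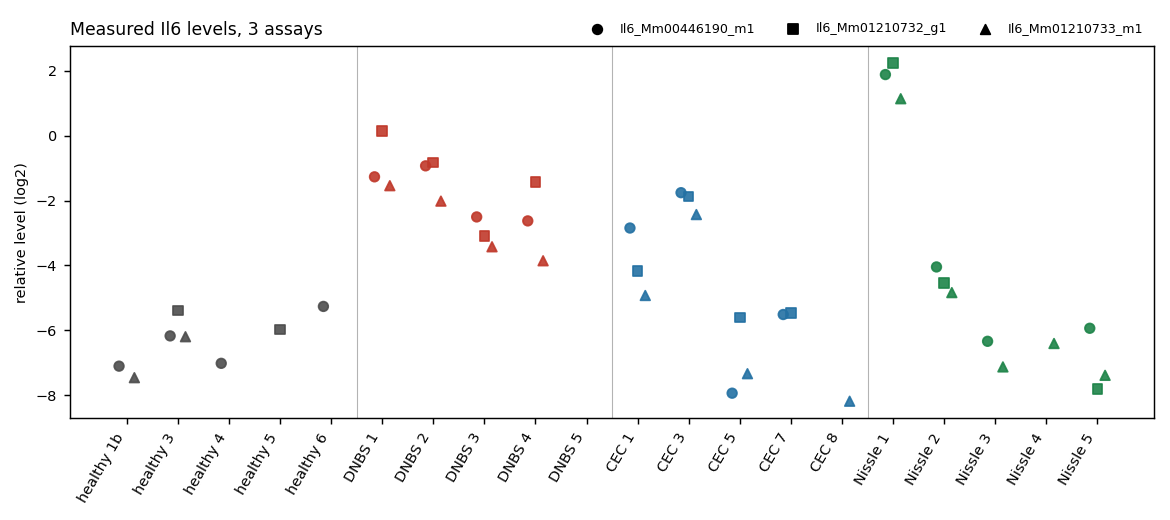
Measured relative levels (log2) of the 3 Il6 assays in each sample, with group-mean values left out and healthy 5's value of 18.05 off the scale. The assays follow each other from sample to sample; DNBS 5 has no measured value, and CEC 8 and Nissle 4 have 1 each.

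Over the samples where both assays were measured, Pearson's r in relative level was 0.913 between Il6_Mm00446190_m1 and Il6_Mm01210732_g1 (12 samples), 0.973 between Il6_Mm00446190_m1 and Il6_Mm01210733_m1 (13 samples), and 0.965 between Il6_Mm01210732_g1 and Il6_Mm01210733_m1 (11 samples, healthy 5 left out). These are descriptions: the points share their RNA and the normalizing mean of each sample.

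Oncostatin M (Osm), made by myeloid cells, was higher in 3 of 5 DNBS samples than in any healthy one, and the difference did not pass the threshold. The healthy levels were -5.50, -5.59, -4.93, -4.71 and -3.52 (healthy 1b, 3, 4, 5 and 6), and the DNBS levels -1.70, -2.30, -4.19, -3.11 and -3.94 (DNBS 1 to 5). DNBS 1, 2 and 4 lay above all healthy samples, and DNBS 3 and 5 below healthy 6. The means were -4.85 ± 0.83 and -3.05 ± 1.06 (SD, n = 5 each), and the log2 difference was 1.80 (SE 0.79, limma adjusted p = 0.298).

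Osm in CEC was at -3.46, -2.90, -5.07, -4.69 and -6.60 (CEC 1, 3, 5, 7 and 8), and in Nissle at -1.55, -4.52, -5.74, -4.19 and -5.98 (Nissle 1 to 5). CEC 1 and CEC 3 were the highest CEC samples, and Nissle 1 the highest of all 20 samples, as with Il6. Relative to DNBS the log2 differences were -1.49 in CEC (SE 0.79, limma adjusted p = 0.480) and -1.35 in Nissle (SE 0.79, limma adjusted p = 0.85). Without the 3 Nissle samples of contradictory label, which leaves Nissle 1 and 2, the Nissle difference was 0.0075. Without Nissle 1 alone it was -2.06, so that it depended on single samples. Relative to healthy, Osm differed by 0.31 in CEC and by 0.45 in Nissle, each less than its SE of 0.79. Without the 3 samples the Nissle value was 1.81 (SE 0.98, limma adjusted p = 0.267), and CEC minus Nissle was -1.50 in place of -0.15.

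Lif, a cytokine with roles in stem cell maintenance and epithelial repair, had means in DNBS and healthy that lay closer than their SDs, and its lowest mean was in CEC. The healthy levels were -3.43, -3.50, -2.70, -2.09 and -2.44 (healthy 1b, 3, 4, 5 and 6), and the DNBS levels -2.65, -2.25, -2.72, -2.90 and -2.96 (DNBS 1 to 5). The means were -2.83 ± 0.62 and -2.69 ± 0.28 (SD, n = 5 each), a log2 difference of 0.14 (SE 0.37, limma adjusted p = 0.914). The CEC levels were -3.78, -4.57, -3.58, -3.55 and -3.02 (CEC 1, 3, 5, 7 and 8), and all 5 lay below the lowest DNBS sample.

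In CEC, Lif had a log2 difference of -1.01 from DNBS (SE 0.37), a 2.01-fold lower level that ranked 17 by p-value among 569 assays and did not pass (limma adjusted p = 0.385). Groups that do not overlap with CEC lower were found for 1.23% of tested assays in this comparison. The gap itself is narrow, with CEC 8 at -3.02 and DNBS 5 at -2.96. Relative to healthy, Lif in CEC differed by -0.87 (SE 0.37, limma unadjusted p = 0.0299, adjusted p = 0.803), and did not pass. Over the panel, 22 of 569 tested assays had an unadjusted p under 0.05 in that comparison, and 0.176% were called. In Lif, 4 of 5 CEC samples lay below the lowest healthy one. The Nissle levels were -2.54, -3.63, -2.60, -2.73 and -3.18 (Nissle 1 to 5), with a log2 difference from DNBS of -0.24, or of -0.40 without the 3 samples of contradictory label. Relative to healthy the Nissle difference was -0.11, or -0.26 without them. CEC 3, which was highest of its group in Il6 and Osm, was the lowest of all 20 samples in Lif.

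Il27, which encodes the p28 subunit of IL-27, had no difference between groups that passed the test. The healthy levels were -6.25, -6.32, -5.44 and -3.91 (healthy 1b, 3, 4 and 6), with healthy 5 undetermined. The DNBS levels were -3.73, -6.03, -4.57, -3.88 and -7.13 (DNBS 1 to 5). DNBS 1 and 4 lay above all healthy samples and DNBS 5 below them. The means were -5.48 ± 1.12 (n = 4) and -5.07 ± 1.47 (n = 5; SD), with a log2 difference of 0.41 (SE 1.06, limma adjusted p = 0.901). That value was 2.56 with the undetermined healthy sample set at cycle 40, 1.64 with the replicate number as a block, and 0.077 without DNBS 1 to 0.93 without healthy 6, and did not pass in any of these fits.

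The CEC levels of Il27 were -7.28, -5.67, -5.06, -5.26 and -6.08 (CEC 1, 3, 5, 7 and 8), and the Nissle levels -1.67, -6.25, -4.14, -3.79 and -8.52 (Nissle 1 to 5). Nissle 1 and Nissle 5 were the highest and lowest of the 19 samples with a value. Relative to DNBS the log2 difference was -0.80 in CEC (limma adjusted p = 0.746) and 0.20 in Nissle (limma adjusted p = 0.953), each smaller than its SE. Without the 3 samples of contradictory label the Nissle value was 1.11, its value against healthy 1.52 in place of 0.61, and CEC minus Nissle -1.91. Without Nissle 1 alone, Nissle minus DNBS was -0.61.

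**Figure D3:**
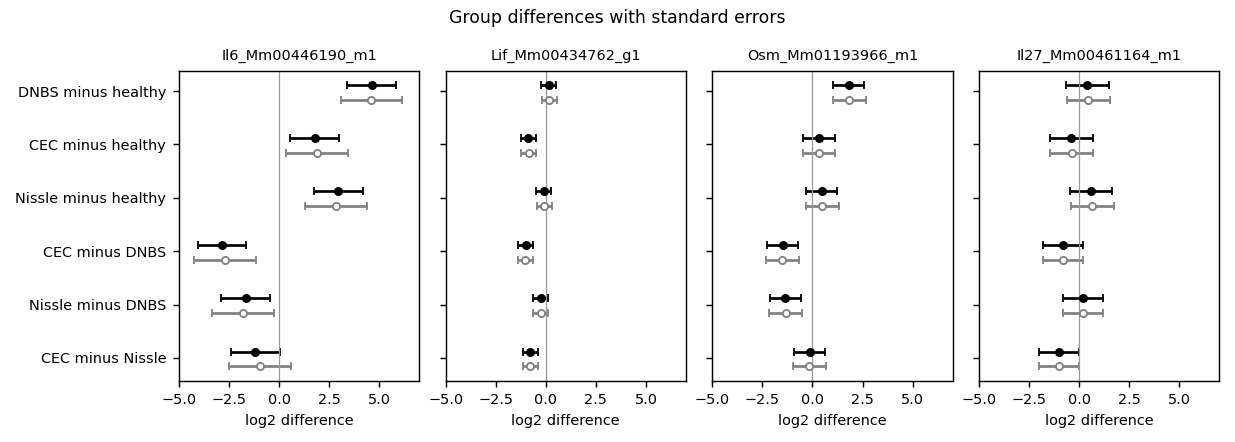
Log2 difference with its standard error for Il6_Mm00446190_m1, Lif, Osm and Il27 in the 6 comparisons; filled points are fits to all values and open points fits without group-mean values. The largest is Il6 in DNBS minus healthy (4.62, or 4.61 without group-mean values), and for Lif both differences of CEC from DNBS and healthy lie below 0.

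The rest of the pathway was counted from lists of genes. None of their tested assays was called in any of the 6 comparisons. Among other cytokines of the family, 4 of 8 genes were on the panel. In DNBS minus healthy, 2 of their 5 assays were above 0 and 3 below, with a median log2 difference of -0.05 beside -0.07 over all tested assays. Ebi3, the partner subunit of Il27, differed by -0.61 (SE 0.38), Ctf1 (cardiotrophin-1) by -0.22 and Il12a, which Ebi3 can also bind, by 0.64 and 0.39 with its 2 assays.

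Receptor chains were measured for 6 of 8 genes, and 7 of 8 assays were tested. In DNBS minus healthy, Il6st, the shared gp130 chain, differed by 0.27 (SE 0.27) and Il6ra, the IL-6 binding chain, by 0.48 (SE 0.39). The assays of Cntfr, the receptor of ciliary neurotrophic factor, disagreed in sign at 0.82 and -0.60. Il27ra differed by -0.48 (SE 0.42). Stat3, the main transcription factor downstream of gp130, differed by -0.16 (SE 0.23) in DNBS minus healthy, and the kinase Jak2 by -0.46 (SE 0.27).

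Among inhibitors of the pathway, Socs1 and Socs2 had differences of opposite sign, and neither passed. Socs1, which binds JAK kinases, differed by 0.92 in DNBS minus healthy (SE 0.41, limma adjusted p = 0.301) and by -1.12 in CEC minus DNBS (SE 0.41, limma adjusted p = 0.385). Socs2 differed by -0.95 (SE 0.24, limma adjusted p = 0.122) and by 0.57 (SE 0.24, limma adjusted p = 0.436) in the same comparisons. Socs3, the inhibitor that binds gp130 itself, was not analysed here.

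Textbook targets of STAT3 were measured for 11 of 29 genes, and 8 assays were tested, of which 6 were above 0 in DNBS minus healthy and 2 in CEC minus DNBS. Their median log2 difference in DNBS minus healthy was 0.88, beside -0.07 over all tested assays. Lbp, the lipopolysaccharide binding protein, differed by 1.19 (SE 0.40, limma adjusted p = 0.158), Cebpb, a transcription factor of the acute-phase response, by 1.28 (SE 0.56, limma adjusted p = 0.298), and Saa1, an acute-phase serum amyloid, by 1.29 (SE 0.65, limma adjusted p = 0.380). Saa3 differed by 2.19 with an SE of 1.25.

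All 10 genes listed as inducers of Il6 were on the panel, and 7 of 10 tested assays were above 0 in DNBS minus healthy, where 254 of all 569 were. Their median log2 difference was 0.58, beside -0.07 over all tested assays. Il1b, a cytokine that drives Il6 transcription, differed by 1.81 (SE 0.80) and 1.71 (SE 1.05) with its 2 assays, and by -1.98 (SE 0.80) and -0.75 (SE 1.05) in CEC minus DNBS. Ptgs2, the inducible cyclooxygenase, differed by 1.08 (SE 0.59) and Tlr4, the lipopolysaccharide receptor, by 0.68 (SE 0.37) in DNBS minus healthy. The Tnf assay was undetermined in every sample.

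**Figure D4:**
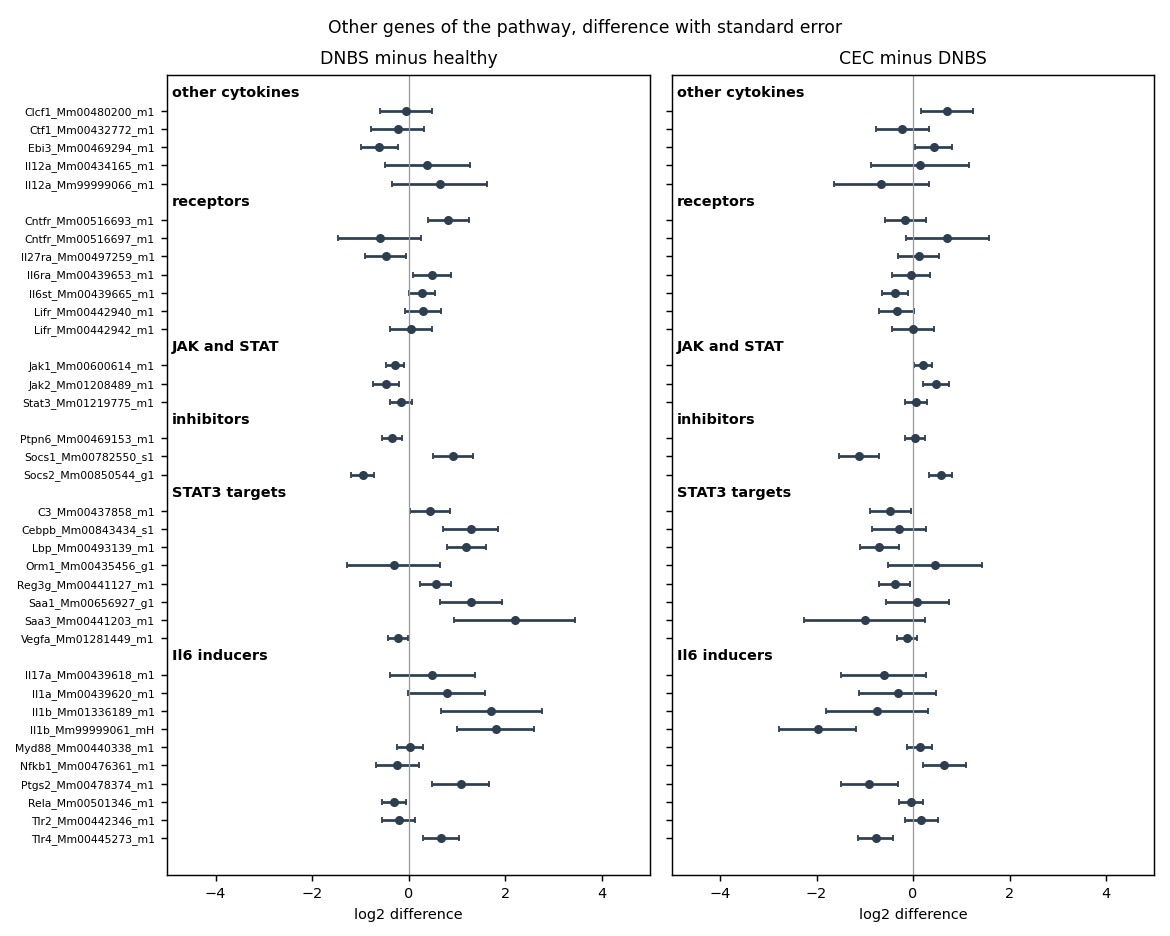
Log2 difference with its standard error of tested assays of other family cytokines, receptors, JAK and STAT genes, inhibitors, STAT3 targets and Il6 inducers in DNBS minus healthy (left) and CEC minus DNBS (right). Socs2 lies at -0.95 and 0.57, and none of the assays was called.

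Markers of neutrophils, which can be a source of oncostatin M, were highest within CEC and Nissle in the samples highest in Il6 and Osm. Of 10 neutrophil markers sought, 7 were measured, while Elane, Ly6g and Mpo, which define the lineage, were not analysed here. Their mean level was -3.17 to -1.73 in healthy samples and -2.44 to 0.36 in DNBS samples, with DNBS 5 the lowest of its group. It was 0.12 in CEC 3 and -0.39 in CEC 1, against -3.03 to -2.31 in the other CEC samples, and 2.29 in Nissle 1, against -2.47 to -1.42 in the other Nissle samples. The samples highest in Il6 and Osm within CEC and Nissle are thus also the highest in these markers, and DNBS 5, low in the markers, has no measured Il6 value. This was not particular to neutrophil markers, since the same samples also led their groups in other markers given below. Within DNBS it did not hold for Osm: DNBS 3 was lowest in Osm (-4.19) with a marker mean of -0.39. For Il6 it held there in part. DNBS 2, highest in the markers (0.36), was highest in Il6_Mm00446190_m1 (-0.93), while both other Il6 assays were highest in DNBS 1. Within healthy it did not hold for Il6: healthy 1b had the highest marker mean (-1.73) and the lowest measured Il6_Mm00446190_m1 level (-7.11). The part of the markers in the cytokine differences was not tested.

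**Figure D5:**
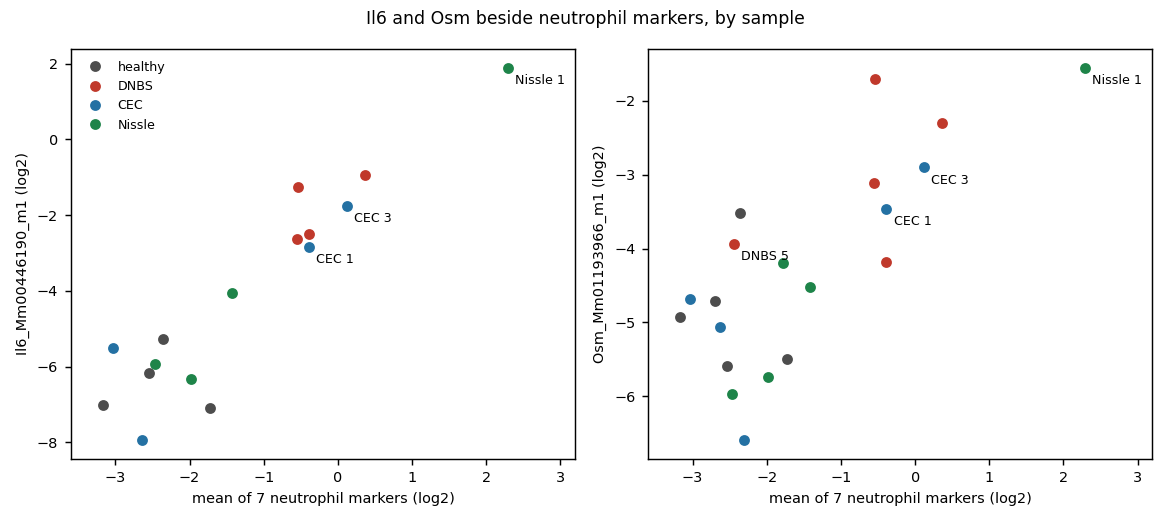
Relative level (log2) of Il6_Mm00446190_m1 (left, measured values) and Osm (right) against the mean of 7 neutrophil markers (log2), 1 point per sample, coloured by group. Nissle 1 stands at 2.29 on the marker axis and is highest on both cytokine axes, and CEC 1 and CEC 3 lie at -0.39 and 0.12 on the marker axis.

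Markers of other cell types were read in the same way. Selp, P-selectin of endothelium and the only stromal or endothelial marker of 8 with a value in every sample, was at -4.14 to -3.77 in healthy and at -3.43 to -1.71 in DNBS, without overlap, and at -4.39 to -1.66 in CEC and -3.08 to 0.31 in Nissle. Its log2 difference in DNBS minus healthy was 1.59 (SE 0.59, limma adjusted p = 0.158). The mean of 8 macrophage, monocyte and dendritic cell markers was -1.71 to -0.93 in healthy samples, -1.42 to -0.39 in DNBS, -1.25 to 0.20 in CEC and -1.13 to 0.19 in Nissle. That of 4 T cell markers lay between -2.47 and -1.20 in all 20 samples. The B cell marker Cr2 was at -2.41 to -1.12 in healthy, -3.65 to -1.92 in DNBS, -6.33 to -1.81 in CEC and -5.73 to -3.15 in Nissle. The mean of 3 mast cell and eosinophil markers was at -1.36 to -0.54 in healthy, -2.08 to -1.18 in DNBS, -1.37 to -0.93 in CEC and -2.50 to -0.87 in Nissle. The epithelial assays were at 5.83 to 7.42 in healthy, 4.67 to 6.62 in DNBS, 6.38 to 7.60 in CEC and 4.74 to 7.34 in Nissle. In CEC minus DNBS, where Il6, Osm and Lif had negative differences, the 3 epithelial assays differed by 1.59 and 1.16 (Apoa1) and 1.12 (Ccl25), and none was called. CEC 1, CEC 3 and Nissle 1 were the highest of their groups in the macrophage mean (0.20, 0.0028 and 0.19). They were so in Selp too (-1.71, -1.66 and 0.31). In the epithelial mean, CEC 3 (6.38) and Nissle 1 (4.74) were the lowest of their groups. The part of these markers in the cytokine differences was not tested either.

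The assays most like each cytokine over the samples were ranked by Pearson's r with 543 to 565 other assays, as a description, since all share the sample mean and the group structure. Il6_Mm00446190_m1 was most like Sele, the endothelial adhesion molecule E-selectin (r = 0.913, 15 samples), Ccl7, a monocyte chemokine (r = 0.880, 20 samples), and Il1f9, an IL-1 family cytokine (r = 0.848, 16 samples). Without group-mean values these were 0.961, 0.950 and 0.892 over 12, 16 and 13 samples. Il6_Mm01210732_g1 was most like the neutrophil chemokines Cxcl2 (r = 0.857) and Cxcl3 (r = 0.840) and Il1b (r = 0.838), each over 15 samples. With group-mean values left out, r was 0.845, 0.855 and 0.846 over 12, 12 and 11 samples, which changes their order. For Il6_Mm01210733_m1 the first was Ptx3, a soluble pattern recognition protein (r = 0.789, 16 samples, or 0.860 over 14 without group-mean values). Ptx3 had no value in healthy 5, the sample with the early Ct.

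Osm was most like both Ccl7 assays (r = 0.840 and 0.822, 20 samples) and Sele (r = 0.821, 15 samples), so that Ccl7 and Sele are among the 3 nearest of both Osm and Il6_Mm00446190_m1. Lif had other neighbours and a looser fit: Tnfsf11, a TNF family ligand (r = 0.725), the interferon-induced chemokine Cxcl9 (r = 0.660) and Jak3 (r = 0.610), each over 20 samples. Il27 had an r of 0.687 with Il12a_Mm99999066_m1 over 19 samples and of 0.684 with Cxcl10, an interferon-induced chemokine, over 19 samples. Without Nissle 1 these were 0.563 and 0.484, whereas r of Il6_Mm00446190_m1 with Ccl7_Mm01308393_g1 was 0.830 and that of Osm with the same Ccl7 assay was 0.782.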

How the data were processed

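Relative mRNA levels came from real-time PCR on TaqMan OpenArray mouse inflammation plates, per the labels' protocols. The authors deposited raw Ct values without normalization, an other unit than counts or intensities, with 40 for undetermined. It has 648 assays in 20 samples, and 1273 of 12960 values are undetermined and 1 is empty. Baseline and threshold settings, and replicate wells, are not given in the sources used here. The relative level is the negative of Ct minus the sample's mean Ct over 544 assays with a value in all samples, which is on a log2 scale under the assumption of a doubling per cycle. Symbols were updated through RefSeq (GRCm38.p6): 17 were renamed and 1 did not match.

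The 569 assays that had 3 or more values per group were fitted with limma 3.58.1 in R 4.3.3: 4 group means over 20 samples, empirical Bayes moderation with a trend, with two-sided p-values adjusted by Benjamini-Hochberg over all tested assays and called at 0.05. Detection was tested by two-sided Fisher's exact tests (scipy 1.17.1). The fit was tested on simulated data. Likeness was ranked over assays sharing at least 15 samples. All member assays are named, and from each pathway list up to 3 assays with the smallest p, plus Socs3, Stat3, Il6ra, Il6st, Il1b and Tnf. Saa3, Ctf1 and Cntfr_Mm00516697_m1 were named after their values were seen. Some results are not reported here. The members and lists were chosen with earlier results of these data known. Depth is given as assays detected, and no count underlies a Ct.

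Groups share sample numbers, which the labels tie to no litter, batch or day. DNBS and healthy samples of the same number deviated together (correlations of 0.136 to 0.491 over 3 pairs), which comes from the data, although DNBS 4 did not match its own number best. The correlations were 0.114 to 0.130 for CEC and healthy (2 pairs), -0.401 to -0.146 for Nissle and healthy, -0.118 to 0.342 for CEC and DNBS, -0.273 to 0.353 for Nissle and DNBS and -0.355 to 0.436 for CEC and Nissle. Samples matched their own number best in 2 of 3 pairs of DNBS and healthy, and in 2 of 2 of CEC and healthy. The counts were 0 of 3 for Nissle and healthy, 1 of 3 for CEC and DNBS, 1 of 5 for Nissle and DNBS and 2 of 3 for CEC and Nissle. So few pairs cannot settle whether the numbers pair the samples. Alternatives covered normalization, undetermined, early and late values, filter, samples, weights, trend, block, labels and single samples left out. Removal of group-mean values was added after seeing the data.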

Additional observations from a re-analysis of the deposited data

How the results depend on the processing

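Over 15 alternatives besides leaving out single samples, Il6_Mm00446190_m1 stayed higher in DNBS than in healthy, between 3.90 and 4.86 (log2). It passed the threshold, as the 1 member assay called, in the fit to both groups alone (4.62), with array weights (4.35, adjusted p = 0.00713, where 15.8% of the panel was called) and, added after seeing the data, in both groups without group-mean values (4.61). Leaving out single samples moved it between 4.42 and 4.89, and 1 of 20 such fits, that without Nissle 1, called it. With the number as a replicate block it was 3.90 (SE 1.47, limma adjusted p = 0.422), and the block changed no call of a member.

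No other member assay was called under any setting. Signs turned as follows, and the cause was not tested. With undetermined values at cycle 40, Il6_Mm01210733_m1 was at 3.21, 0.27 and 0.88 in DNBS, CEC and Nissle minus healthy, and Il27 at 1.76 in CEC minus healthy. With array weights, Il6_Mm01210733_m1 was at 1.80 in DNBS minus healthy, Osm at -0.46 and -0.20 in CEC and Nissle minus healthy, and Il27 at -0.76 in Nissle minus DNBS. Without the 3 Nissle samples of contradictory label, Nissle minus DNBS was 0.63 for Il6_Mm00446190_m1, 0.74 for Il6_Mm01210733_m1 and 0.0075 for Osm. Nissle 1 and 2 were the only Nissle samples left in that fit. With the block, Il27 was at 0.71 in CEC minus healthy and Osm at 0.66 in CEC minus Nissle. Without normalization, Lif was at 0.33 in Nissle minus healthy.

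Single samples left out turned signs within these ranges: Lif -0.030 to 0.32 in DNBS minus healthy (without healthy 1b or 3) and -0.27 to 0.079 in Nissle minus healthy, Osm -0.10 to 0.82 in CEC minus healthy, -0.26 to 0.85 in Nissle minus healthy and -0.56 to 0.57 in CEC minus Nissle, Il27 -0.67 to 0.13 in CEC minus healthy, -0.20 to 1.52 in Nissle minus healthy and -0.61 to 1.11 in Nissle minus DNBS, and in CEC minus Nissle Il6_Mm00446190_m1 -1.93 to 0.13 and Il6_Mm01210733_m1 -1.38 to 0.91. The last assay could not be tested in either fit without values under cycle 10, with values above cycle 30 undetermined, or without healthy 1b, 3 or 5. The panel's count of calls in DNBS minus healthy was 1 in the reported fit, 0 without normalization, 2 with the block, 9 for both groups alone, 90 with array weights, and 1 to 7 with single samples left out (7 without DNBS 5, 6 without Nissle 1). In CEC minus DNBS it was 0, and 21 with array weights. In CEC and in Nissle minus healthy it was 0 to 2. In CEC minus DNBS no member turned sign over these alternatives, and the values ran from -3.34 to -2.01 for Il6_Mm00446190_m1, -1.32 to -0.75 for Lif, -2.15 to -0.69 for Osm and -1.20 to -0.80 for Il27. How far late Ct values limit detection was not tested.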
